A study of Mus musculus with 23 samples.

Results

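The endothelial genes are 10 genes with well-known roles in the cells that line blood vessels: Pecam1, Cdh5, Kdr, Flt1, Tek, Tie1, Emcn, Cldn5, Vwf and Egfl7. They were taken by name from the 54347 genes of the deposited count matrix, after Ensembl identifiers had been matched to gene symbols with the version dropped, and each name matched 1 identifier. The libraries came from the labial cervical loop, the epithelial fold at the growing base of the mouse lower incisor, dissected at postnatal day 2 from Sox2-GFP mice, in which the endogenous Sox2 promoter drives green fluorescent protein. After digestion with collagenase and neutral protease, fluorescence sorting gave a Sox2-positive population, named dental epithelial stem cells (DESC) in the labels, and a Sox2-negative population, which holds the other cells of the dissected region. Line, age and tissue are the same in all 4 groups: Sox2-negative cells gave 6 libraries in batch A and 4 in batch B, and Sox2-positive cells gave 6 and 7. The batches were separate days with different mice. The labels do not say whether the libraries of a batch came from different mice, so p-values measure the spread between these libraries, which may be partly technical. Neither population was sorted on an endothelial marker.

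Endothelial cells form the inner lining of every vessel and hold to each other through adherens junctions built on VE-cadherin, the product of Cdh5, and tight junctions that contain claudin-5, the product of Cldn5. Their growth is driven by vascular endothelial growth factors (VEGFs), which signal through the receptor tyrosine kinase VEGFR2 (Kdr) and are also captured by VEGFR1 (Flt1). A second receptor pair, Tie2 (Tek) and Tie1, acts with the angiopoietins in vessel maturation and quiescence. PECAM-1 (Pecam1, also called CD31) is an adhesion molecule that platelets and leukocytes carry as well, and von Willebrand factor (Vwf) is stored by endothelial cells and platelets. The tooth has vessels in its pulp and in the mesenchyme around its epithelium, while the dental epithelium is generally described as free of vessels.

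The sequences just upstream of 4 of these genes are shown because the genes moved together and were at or near 0 in most Sox2-positive libraries. Factors of the ETS family, which include Erg and Fli1, bind many endothelial promoters at words with the core GGAA, and the capitals mark the 6-letter words AGGAAG or CGGAAG on either strand, so that CTTCCT and CTTCCG are marked too. The sequences are the 250 bases before the start site in RefSeq on GRCm38.p6, read 5′ to 3′ along the gene. They lie at chr5:75978456-75978705 for Kdr, chr5:147726012-147726261 for Flt1 and chr4:118489850-118490099 for Tie1, all on the minus strand, and at chr3:137340828-137341077 on the plus strand for Emcn.
Kdr: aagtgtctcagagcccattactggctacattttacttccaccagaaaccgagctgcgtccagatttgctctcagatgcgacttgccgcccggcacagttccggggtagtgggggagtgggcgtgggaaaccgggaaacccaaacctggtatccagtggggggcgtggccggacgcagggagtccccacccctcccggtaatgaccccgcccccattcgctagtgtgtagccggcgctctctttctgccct
Flt1: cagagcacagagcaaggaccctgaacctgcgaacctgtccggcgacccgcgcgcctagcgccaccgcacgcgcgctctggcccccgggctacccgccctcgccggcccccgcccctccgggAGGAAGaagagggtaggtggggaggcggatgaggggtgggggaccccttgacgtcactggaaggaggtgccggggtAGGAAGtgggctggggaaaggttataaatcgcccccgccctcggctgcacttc
Tie1: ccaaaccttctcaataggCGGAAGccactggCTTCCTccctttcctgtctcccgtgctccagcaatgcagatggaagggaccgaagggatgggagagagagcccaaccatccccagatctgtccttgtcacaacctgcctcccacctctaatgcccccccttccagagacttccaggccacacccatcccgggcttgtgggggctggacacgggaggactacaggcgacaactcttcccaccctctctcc
Emcn: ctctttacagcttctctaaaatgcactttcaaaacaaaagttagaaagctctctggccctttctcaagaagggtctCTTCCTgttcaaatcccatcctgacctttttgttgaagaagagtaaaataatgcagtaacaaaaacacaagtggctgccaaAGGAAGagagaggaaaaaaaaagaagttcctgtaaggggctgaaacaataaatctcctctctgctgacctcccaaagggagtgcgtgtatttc
Flt1, Tie1 and Emcn each held such 6-letter words in this window, and Kdr held none. The shorter core GGAA, which is not marked, does occur in the Kdr window on both strands. RefSeq entries matched 7 of the members, with 9 entries in all because Egfl7 has several start sites, and no entry was used for Pecam1, Cdh5 and Vwf. An AGGAAG or CGGAAG word stood in 5 of the 9 entries (55.56%), belonging to 4 members, against 39.21% of the 32851 upstream windows of the same length in the table. AGGAAG alone was in 29.48% of all windows and CGGAAG in 13.59%. The GATA-factor word AGATAA, searched on both strands, was in 0 of the 9 entries and in 9.988% of all windows. These matches are descriptions of letters and not of bound sites.

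The depth of the libraries ranged from 2305778 to 9541443 estimated counts with a median of 4831091. Levels are given in CPM, counts scaled to a library total of 1000000 after scaling of each library total by the trimmed mean of M-values (TMM). The mean level of Sox2 itself was 7.24 and 16.4 CPM in the Sox2-positive libraries of batches A and B, and 0.0415 and 0.285 CPM in the Sox2-negative ones. All 8 epithelial marker genes were higher in the Sox2-positive libraries (edgeR, adjusted p under 0.05). Batch B libraries numbered 1 and 2 stood apart from the others of their groups in earlier results on these data. With at least 1 count, 21249 to 21524 genes were detected in the Sox2-negative libraries with those numbers. The others of the group had 19111 to 19183. The tests of the 10 endothelial genes that rest on batch B were therefore also run without batch B libraries numbered 1 and 2. Levels, list sums and results for genes outside the 10 are given only with all libraries.

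All 10 endothelial genes were lower in Sox2-positive than in Sox2-negative cells, in both batches together and in each batch alone (edgeR quasi-likelihood test, Benjamini-Hochberg adjusted p under 0.05). Of all genes tested, 32.5% were called lower in both batches together, 24.2% in batch A and 27.6% in batch B. The median log2 fold change of the 10 genes was -7.26 with both batches, against -0.12 over all 17190 genes tested. It was -9.20 in batch A, where the median of all genes was -0.04, and -6.01 in batch B, where it was 0.01. Every member passed the filter on low counts, and the filter takes the group where a gene is high, so passing it was not independent of the difference. For 8 of the 10 every Sox2-negative library lay above every Sox2-positive library, as for 8.01% of all genes. Within batch A this held for all 10 (14.3% of all genes) and within batch B for 9 (20.2%). The summed level of the 10 genes was 1376 ± 168.5 CPM (SD, n = 6) and 382.3 ± 70.8 CPM (n = 4) in the Sox2-negative libraries of batches A and B. In the Sox2-positive libraries it was 28.1 ± 6.26 CPM (n = 6) and 29.8 ± 6.13 CPM (n = 7). In bulk libraries like these, fewer endothelial cells and less RNA of these genes per cell cannot be told apart.

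**Figure D1:**
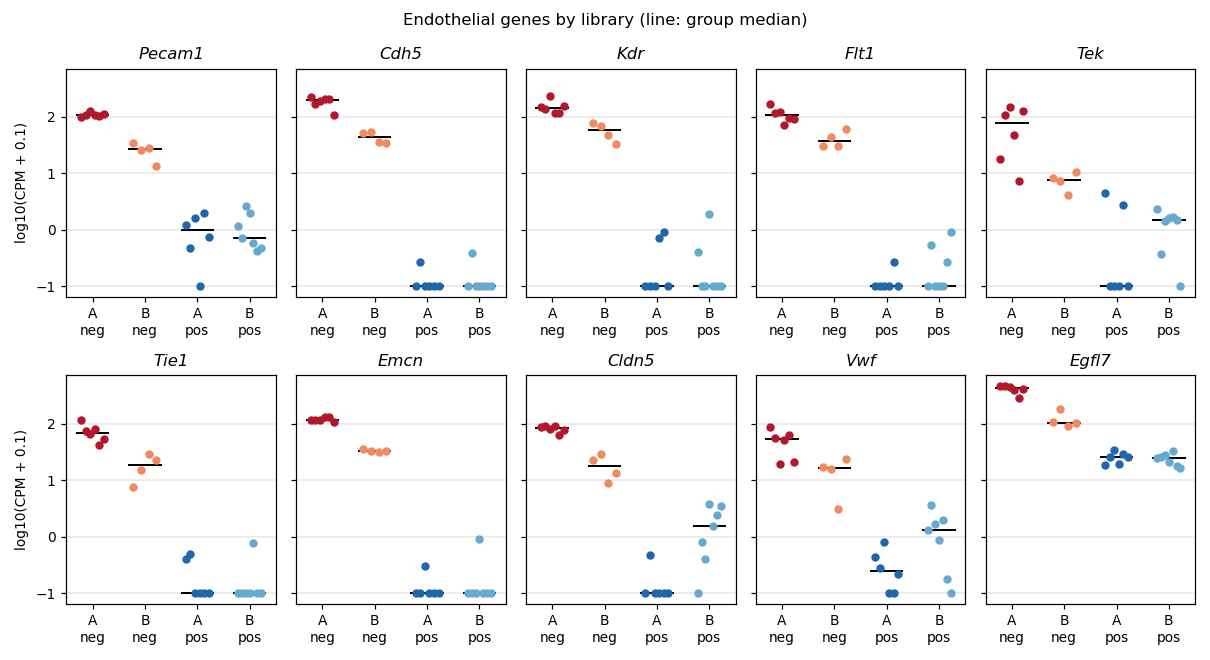
Level of each endothelial gene in every library, as log10(CPM + 0.1) on the vertical axis, by batch (A, B) and sorted population (neg, Sox2-negative; pos, Sox2-positive). Points are libraries and black lines group medians; for all genes but Tek and Vwf every Sox2-negative library lies above every Sox2-positive library, and Egfl7 alone has counts in every Sox2-positive library.

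Kdr and Flt1, the VEGF receptors, had few or no counts in the Sox2-positive libraries. Kdr (chr5:75932827-75978458, minus strand, in the GENCODE M21 annotation of GRCm38, as are all gene positions below) encodes the receptor that carries most VEGF-A signalling in endothelium. Its level ran from 116.5 to 235.2 CPM with a median of 142.8 in batch A Sox2-negative libraries. The 4 batch B Sox2-negative libraries, in the order of their numbers, had 79.1, 70.3, 47.2 and 33.1 CPM. These values were all above those of the Sox2-positive libraries, where Kdr had 0 counts (after rounding, here and below) in 4 of 6 batch A and 5 of 7 batch B libraries and reached 1.78 CPM at most. The log2 fold change was -8.49 ± 0.46 (SE) with both batches (edgeR, adjusted p 1.365e-14).

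Flt1 (chr5:147561604-147726011, minus strand) encodes the receptor that binds VEGF tightly but signals weakly, and its shorter secreted forms act as a trap for VEGF. It ran from 72.9 to 165.9 CPM with a median of 106.9 in batch A Sox2-negative libraries. In batch B the Sox2-negative libraries had 29.9, 43.8, 30.5 and 61.1 CPM. Library 4 was thus the highest in batch B for Flt1 and the lowest for Kdr. Over the Sox2-negative libraries the ratio of Kdr to Flt1 CPM ran from 0.902 to 1.91 in batch A and from 0.542 to 2.65 in batch B. In Sox2-positive cells Flt1 had 1 count in all 6 batch A libraries together and 6 counts in the 7 batch B libraries. Its log2 fold change was -9.08 ± 0.43 (SE, adjusted p 7.862e-16 by edgeR).

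The Tie receptors followed the VEGF receptors in direction. Tie1 (chr4:118471191-118490061, minus strand), which modulates Tie2 signalling, ran from 42.5 to 118.6 CPM with a median of 69.8 in batch A Sox2-negative libraries. The batch B Sox2-negative libraries had 7.45, 15.2, 29.7 and 22.4 CPM, so those numbered 1 and 2 were the lowest. It had 0 counts in 4 of 6 batch A and 6 of 7 batch B Sox2-positive libraries, with 0.669 CPM at most. The log2 fold change was -8.71 ± 0.49 (SE, adjusted p 3.518e-14 by edgeR).

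Tek (chr4:94739289-94874976, plus strand), the angiopoietin receptor Tie2, was the most uneven member in batch A. Its batch A Sox2-negative libraries, numbered 1 to 6, had 18.2, 107.8, 147.0, 48.5, 7.33 and 128.7 CPM. The coefficient of variation was 77.9%, and 8.097% of the 11128 genes with a mean of at least 10 CPM in that group varied as much or more. The batch B Sox2-negative libraries had 8.19, 7.10, 3.96 and 10.7 CPM, in the range of the lowest batch A library. Tek was at 0 in 4 of 6 batch A Sox2-positive libraries, while the other 2 had 4.44 and 2.67 CPM. In batch B it was at 0 in 1 of 7 Sox2-positive libraries and reached 2.24 CPM. Sox2-negative and Sox2-positive libraries did not overlap within a batch, but the highest batch A Sox2-positive library lay above the lowest batch B Sox2-negative one. The log2 fold change was -4.58 ± 0.77 (SE, adjusted p 1.333e-05 by edgeR). The ratio of Tek to Tie1 CPM ran from 0.154 to 2.42 over the batch A Sox2-negative libraries and from 0.134 to 1.10 over those of batch B. In batch B the coefficient of variation was 37.1% for Tek and 51.1% for Tie1, against 36.6% for Tie1 in batch A.

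Among the junction and adhesion genes, Cdh5 differed most between the populations. Cdh5 (chr8:104101625-104144511, plus strand), which encodes VE-cadherin, ran from 108.1 to 227.9 CPM with a median of 199.7 in batch A Sox2-negative libraries. It had 51.4, 54.2, 35.9 and 34.2 CPM in those of batch B. In the Sox2-positive libraries it was counted once in 1 of 6 batch A libraries and had 2 counts in 1 of 7 batch B libraries, with 0 in all others. Its log2 fold change of -10.59 ± 0.34 (SE, adjusted p 1.132e-19 by edgeR) was the most negative of the 10, and, like that of every member with a few counts, its fitted size depends on the prior count. The annotation places an antisense gene, Gm29682, across part of Cdh5, and that gene had 0 counts in every library.

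Pecam1 (chr11:106654217-106750628, minus strand) was one of the steadiest members in batch A, where Sox2-negative libraries ran from 99.7 to 127.7 CPM with a median of 108.9. In batch B they had 35.1, 26.1, 28.6 and 13.6 CPM. The Sox2-positive libraries were not at 0: Pecam1 had at least 1 count in all but 1 of the batch A libraries and in all 7 of batch B, up to 1.85 and 2.53 CPM. Its log2 fold change was -5.81 ± 0.41 (SE, adjusted p 3.686e-12 by edgeR).

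Cldn5 (chr16:18776847-18778262, plus strand), which encodes the main claudin of endothelial tight junctions, ran from 62.0 to 93.1 CPM with a median of 83.6 in batch A Sox2-negative libraries. In batch B these libraries had 22.7, 29.6, 9.03 and 13.4 CPM. Its Sox2-positive libraries differed by batch. In batch A, 5 of 6 were at 0 and the other had 2 counts. In batch B only library 1 was at 0, and libraries 2 to 7 had 0.701, 0.307, 3.63, 1.43, 2.36 and 3.47 CPM. The log2 fold change was -6.03 ± 0.73 (SE, adjusted p 9.009e-08 by edgeR).

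Emcn (chr3:137341067-137432185, plus strand) encodes endomucin, a sialomucin on the surface of venous and capillary endothelium, and was the steadiest member in both batches. It ran from 105.6 to 133.4 CPM with a median of 118.6 in batch A Sox2-negative libraries. In batch B the Sox2-negative libraries had 35.4, 32.8, 31.5 and 32.3 CPM. The coefficients of variation were 8.39% in batch A and 5.07% in batch B, and 98.49% and 98.4% of genes with a mean of at least 10 CPM in those groups varied as much or more. It was at 0 in all but 1 Sox2-positive library of each batch, with 1 count and 3 counts in these. Its log2 fold change was -9.69 ± 0.40 (SE, adjusted p 2.358e-17 by edgeR).

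Vwf and Egfl7 encode secreted proteins. Vwf (chr6:125546774-125686679, plus strand), the carrier of factor VIII and a bridge for platelets, ran from 19.1 to 89.3 CPM with a median of 53.4 in batch A Sox2-negative libraries. Those of batch B had 17.4, 15.7, 3.00 and 23.7 CPM. In Sox2-positive libraries it reached 0.706 and 3.54 CPM in batches A and B, with 0 counts in 2 libraries of each batch. This was the only member whose populations overlapped within a batch, since batch B Sox2-positive library 2 lay above Sox2-negative library 3. The log2 fold change was -5.39 ± 0.68 (SE, adjusted p 1.907e-07 by edgeR).

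Egfl7 (chr2:26580014-26593120, plus strand) encodes a matrix protein that endothelial cells deposit around growing vessels, and its gene hosts the microRNA miR-126a. The mature 3′ strand of this microRNA, which is known for maintaining vessel integrity, lies at chr2:26591402-26591423 on the plus strand of GRCm38.p6, and its RefSeq sequence is shown with the seed (bases 2 to 8) in capitals because the microRNA lies within the gene.
mmu-miR-126a-3p: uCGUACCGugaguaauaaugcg
The rows of Mir126a and Mir126b held 0 in every library, and a protocol of this kind does not measure mature microRNAs. Egfl7 ran from 291.3 to 470.2 CPM with a median of 429.5 in batch A Sox2-negative libraries. The batch B Sox2-negative libraries had 107.3, 181.3, 93.2 and 102.0 CPM. Unlike the other members it was counted in all Sox2-positive libraries, from 18.8 to 33.6 CPM with a median of 25.4 in batch A and from 16.7 to 32.6 CPM with a median of 25.1 in batch B. Its log2 fold change of -3.30 ± 0.23 (SE, adjusted p 2.664e-12 by edgeR) was the smallest in size of the 10. Of the summed CPM of the 10 genes, Egfl7 made up 30.1% and 31.1% in the Sox2-negative libraries of batches A and B, but 90.2% and 79.7% in the Sox2-positive ones. Without it, the other 9 summed to 2.84 CPM and 5.98 CPM in the Sox2-positive libraries of batches A and B, and the Sox2-negative sum was 338.3 and 43.7 times as high. The opposite strand of the locus carries Agpat2, a lipid synthesis gene, at 39.0 ± 11.5 CPM (SD, n = 6) and 34.3 ± 4.41 CPM (n = 7) in the Sox2-positive libraries of batches A and B. On the same strand the annotation also places a protein-coding gene, Gm20532, that overlaps Egfl7. Without a stated strand setting, reads from the stretch shared with Agpat2 cannot be assigned to a gene. Reads from the stretch shared with Gm20532 cannot be told apart by strand under any setting. The part of either gene in the Egfl7 level was not tested.

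**Figure D2:**
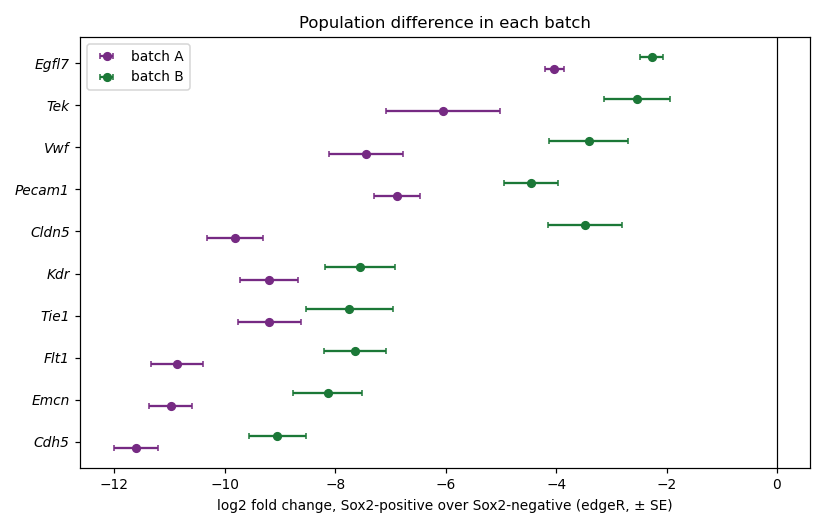
log2 fold change of each endothelial gene, Sox2-positive over Sox2-negative, fitted by edgeR in batch A and batch B alone; bars are ± 1 SE. All 20 values lie below 0, from -11.61 for Cdh5 in batch A to -2.27 for Egfl7 in batch B, and for every gene the batch A value lies further from 0.

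The level that remained in Sox2-positive libraries divided the members after their values had been seen. Summed over libraries and scaled by depth, Cdh5, Kdr, Flt1, Tie1 and Emcn had between 0.0173% (Cdh5) and 0.151% (Kdr) of their Sox2-negative level in batch A. The same 5 had between 0.130% (Cdh5) and 0.439% (Kdr) in batch B. Pecam1, Cldn5, Vwf, Tek and Egfl7 had 4.25%, 7.10%, 9.66%, 16.4% and 19.95% in batch B. The highest upper bound of the first 5 in batch B was 1.20% (Tie1), and the lowest lower bound of the others was 2.99% (Pecam1), by exact (Clopper-Pearson) 95% intervals of the counts. These intervals rest on counts summed over the libraries of a group, so they leave out the spread between libraries. The reads carry no molecular identifiers and can be copies of 1 molecule, so the intervals can be too narrow even for counting error. In batch A the division did not hold: Cldn5, at 0.0789%, lay with the first 5. The interval of Vwf there, from 0.220% to 1.009%, overlapped those of Kdr and Tie1, with upper bounds of 0.311% and 0.396%. Put as ratios, the Sox2-negative level of Cdh5 was 5771 times the Sox2-positive level in batch A, with an interval from 1035 to 228000 set by the single count, and 770.5 times in batch B (212.8 to 6369).

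**Figure D3:**
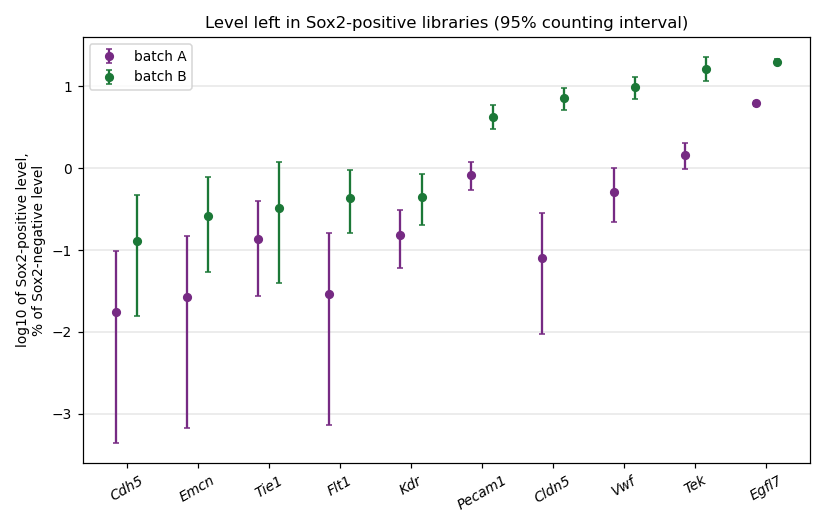
Sox2-positive level of each endothelial gene as a percentage of its Sox2-negative level, on a log10 axis, for batch A and batch B; bars are 95% counting intervals. In batch B, Cdh5, Emcn, Tie1, Flt1 and Kdr lie below 0.5% and the other 5 genes between 4.25% and 19.95%; in batch A the order differs, with Cldn5 at 0.0789%.

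Within the Sox2-negative population, the endothelial genes were lower in batch B than in batch A. The test called 9 of 10 lower, all but Vwf, against 5.35% of all genes tested (edgeR, adjusted p under 0.05). Their median log2 difference, batch B minus batch A, was -1.91, where the median of all genes was -0.00. The batch A mean was 2.65 times the batch B mean for Kdr, 4.23 times for Cdh5 and 10.2 times for Tek, which set the range. For 8 of 10 genes every batch A library lay above every batch B library, as for 4.32% of all genes. The exceptions were Tek and Vwf.

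Cdh5 changed by -2.08 ± 0.27 on the log2 scale (SE, edgeR adjusted p 7.08e-06), Egfl7 by -1.78 ± 0.21 (adjusted p 2.012e-06) and Emcn by -1.87 ± 0.33 (adjusted p 0.0003283). Pecam1, Cldn5, Tie1 and Flt1 fell by 2.10, 2.14, 1.96 and 1.43 on that scale, with edgeR adjusted p between 0.001313 and 0.009974. Kdr (-1.40 ± 0.44, edgeR adjusted p 0.03971) and Tek (-3.35 ± 0.91, adjusted p 0.01579) were nearest to the threshold. Vwf differed by -1.74 ± 0.67 (edgeR adjusted p 0.09614), and was called with DESeq2 (0.03483) and limma-voom (0.02949). The VEGF receptors thus had the smallest differences of the called genes and Tek the largest. Without batch B libraries numbered 1 and 2, 5 genes were called: Pecam1, Cdh5, Emcn, Cldn5 and Egfl7. Of all genes tested, 349 of 18629 were then called lower, against 919 of 17190 with all libraries. Kdr (-1.92), Flt1 (-1.28), Tek (-3.39) and Tie1 (-1.47) kept their sign without a call (edgeR adjusted p from 0.0957 to 0.1988). Kdr was also lost with DESeq2 (adjusted p 0.08157) and when either of 2 batch A or any of the 4 batch B Sox2-negative libraries was left out, with edgeR adjusted p from 0.05617 to 0.1277, and Tek without batch B library 2 (0.0524) or library 3 (0.05145). Scaling by library totals alone moved the median of all genes by -0.15 in this comparison. It changed the split of calls from 1005 higher and 919 lower to 661 and 1388. Day, mice and batch cannot be told apart in this design.

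Other gene lists moved between the Sox2-negative batches as well. The summed level of 10 leukocyte markers was 4.24 times as high in batch A as in batch B, with 1382 ± 89.7 CPM (SD, n = 6) against 325.6 ± 41.5 CPM (n = 4). Lyz2, 1 of these markers, fell from a mean of 619.7 to 70.1 CPM, a large part of the fall in the sum. Of the 10 markers, 5 were called lower in batch B and 0 higher (edgeR, adjusted p under 0.05). Among all 17190 genes tested, 919 were called lower. For the 10 endothelial genes the summed level was 3.60 times as high in batch A. For 22 further endothelial surface and signalling genes it was 2.90 times. For 9 mesenchymal markers it was 0.994 times, at 12520 ± 653.3 CPM and 12600 ± 1544 CPM. Erythroid markers went the other way, from 1092 ± 68.0 CPM in batch A to 56450 ± 3874 CPM in batch B. The epithelial marker sum was 202.4 ± 36.8 CPM in batch A against 366.9 ± 19.1 CPM in the other batch. Of the 8 epithelial markers, 4 were called higher in batch B, where 1005 of all 17190 genes tested were. The pericyte and smooth muscle list was 1.53 times as high in batch A, with 2 of 11 genes called lower and 1 higher in batch B. The part of these cells in the endothelial difference was not tested.

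**Figure D4:**
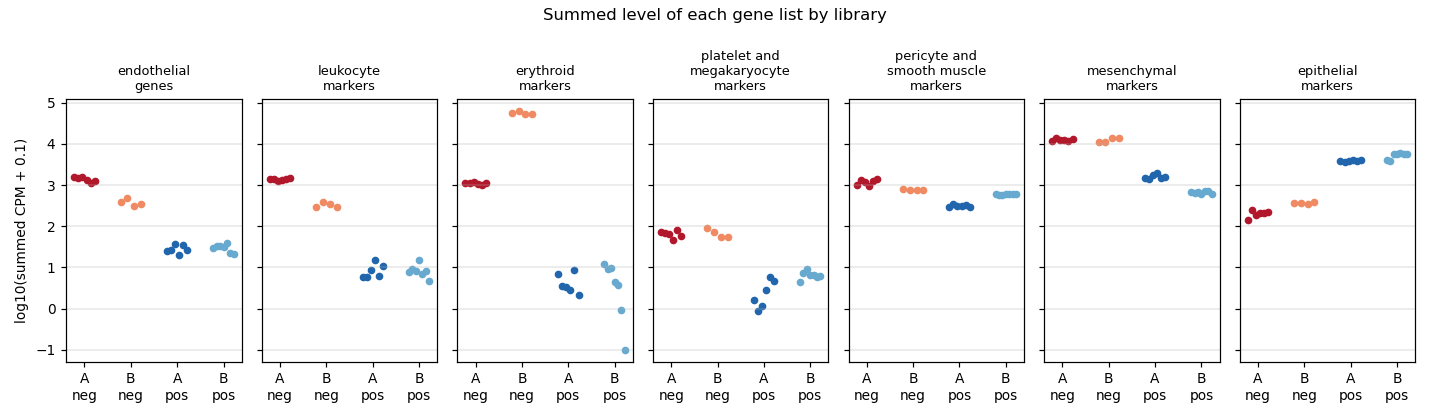
Summed CPM of the endothelial genes and of marker lists for other cell types in every library, as log10(summed CPM + 0.1), by batch and population; points are libraries. Endothelial and leukocyte genes are higher in batch A than in batch B Sox2-negative libraries, mesenchymal markers are near 12520 CPM and 12600 CPM, and erythroid markers are higher in batch B.

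In Sox2-positive cells the batches overlapped for all 10 genes. For all but Pecam1 and Egfl7 both batches held libraries at 0, so overlap was given and is no result about these genes. The share of all genes that overlapped was not computed. Cldn5 was called higher in batch B (log2 difference 4.14 ± 0.88, edgeR adjusted p 0.001902), and no other member was called. This is 1 of 10 genes, and 10.4% of all genes were called in either direction and 4.85% higher, so the count is near the background. Vwf differed by 2.26 ± 0.80 on the log2 scale (edgeR adjusted p 0.07585). It was called without batch A Sox2-positive library 3 (adjusted p 0.0426) or batch B Sox2-positive library 6 (0.03229). Egfl7, the only member with counts in all libraries, differed by -0.08 ± 0.18 (edgeR adjusted p 0.8772).

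The population difference itself was tested for a change between batches. The interaction, batch B minus batch A, was above 0 for all 10 genes, so the difference was smaller in size in batch B, and 4 were called, against 2.82% of all genes called in that direction (edgeR, adjusted p under 0.05). The called genes were Cldn5 (6.28 ± 1.02, edgeR adjusted p 0.000204), Egfl7 (1.70 ± 0.28, adjusted p 0.000207), Vwf (3.99 ± 1.05, adjusted p 0.01778) and Pecam1 (2.38 ± 0.65, adjusted p 0.02289). The median over the members was 2.74 and over all genes 0.02. Cdh5, Kdr, Flt1, Tie1 and Emcn had 1 to 7 counts over the batch A and 2 to 9 over the batch B Sox2-positive libraries. The size of their fold changes was thus limited by the Sox2-negative level, whose mean was 2.65 to 4.23 times as high in batch A. The sign of their interaction is therefore not separate from the batch difference in Sox2-negative cells. In Egfl7 the Sox2-positive levels were nearly equal, 25.3 ± 5.80 CPM (SD, n = 6) and 23.8 ± 5.68 CPM (n = 7), while the Sox2-negative level was 415.7 ± 66.7 CPM and 120.9 ± 40.6 CPM. In Cldn5 both populations differed between batches. Without batch B libraries numbered 1 and 2, Cldn5 (edgeR adjusted p 6.906e-05) and Egfl7 (0.0007056) were still called, and Pecam1 (0.06064) and Vwf (0.1873) were not. The fitted values of Pecam1 and Vwf were then 2.87 and 3.49. Of all genes, 159 of 18629 were called higher in this setting, against 484 of 17190 with all libraries. Pecam1 was also lost without batch B Sox2-positive library 3 (0.08113) and with a replicate block (0.0541), and Vwf with limma-voom (0.1018). Calls were gained for Flt1 with DESeq2 (0.03476) or without batch A Sox2-positive library 5 (0.04617), for Emcn with limma-voom (0.03598), and for Tek with no filter (0.006807) or without batch A Sox2-positive library 1 (0.02457). The fitted interaction of genes with a few counts in Sox2-positive cells, such as Kdr and Tie1, depends on the prior count.

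Compared per length, the members had different levels in the same libraries. In CPM per kilobase of exon union in batch A Sox2-negative libraries, Egfl7 had the highest mean, 116.1 ± 18.6 (SD, n = 6), followed by Cldn5 (58.1 ± 8.20), Cdh5 (44.2 ± 10.2) and Emcn (22.2 ± 1.86). Pecam1 (17.8 ± 1.56), Kdr (16.8 ± 4.84), Tek (16.2 ± 12.6) and Tie1 (14.8 ± 5.41) followed closely. Neighbours among these 4 differed by less than their SDs. Flt1 (8.22 ± 2.42) and Vwf (3.10 ± 1.65) were lowest on this scale. The union of exons is long for genes with many transcripts. Divided by the mean transcript length instead, Egfl7 stayed highest, at 515.9 CPM per kilobase, and Cdh5 came next at 85.6, ahead of Emcn (58.7) and Cldn5 (58.1), while Flt1 was at 37.2, above Kdr at 34.7.

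**Figure D5:**
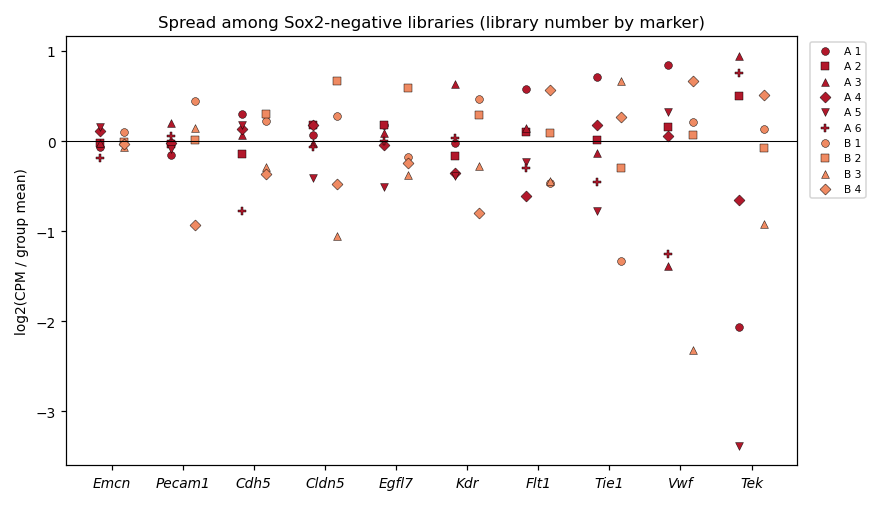
Spread of each endothelial gene among Sox2-negative libraries, as log2 of the CPM over its group mean, for batch A (red) and batch B (orange); the marker gives the library number. Emcn lies closest to its mean in both batches and Tek spreads most in batch A, from 7.33 to 147.0 CPM.

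The ligands and other receptors of the VEGF system did not all follow the endothelial genes. Of 8 such genes, 6 were lower and 2 were higher in Sox2-positive cells with both batches (edgeR, adjusted p under 0.05). Of all genes, 57.5% were called, 32.5% lower and 24.9% higher. The list's median log2 fold change was -4.08. The higher genes encode ligands: Vegfc, a ligand of the lymphatic receptor VEGFR3, had 27.7 ± 9.76 CPM (SD, n = 6) and 41.3 ± 11.6 CPM (n = 7) in batch A and B Sox2-positive libraries. Its level was 10.4 ± 6.10 CPM (n = 6) and 4.75 ± 3.68 CPM (n = 4) in Sox2-negative libraries, a log2 fold change of 2.14 ± 0.38 (SE, adjusted p 2.588e-05 by edgeR). Vegfb, a ligand of VEGFR1, rose by 0.61 ± 0.16 on the log2 scale (edgeR adjusted p 0.001549). Vegfa, the main ligand of VEGFR2, fell by 2.45 on the log2 scale (SE 0.26, edgeR adjusted p 6.244e-09), from 61.8 and 92.5 CPM to 8.93 and 21.9 CPM in batches A and B.

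A further 5 were lower in Sox2-positive cells. Flt4, which encodes VEGFR3, was at 32.9 and 19.0 CPM in Sox2-negative and at 0.0314 and 0.0441 CPM in Sox2-positive libraries of batches A and B. The ligands Pgf (-4.14) and Vegfd (-4.02) and the co-receptor Nrp2 (-4.50) were the others, by log2 fold change. The co-receptor Nrp1 went from 92.0 and 44.3 CPM to 13.4 and 0.299 CPM. Nrp1 differed between the batches of Sox2-positive cells by -5.29 ± 0.42 on the log2 scale (edgeR adjusted p 6.258e-10), and its interaction of -4.23 had the opposite sign to that of the 10 endothelial genes.

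All 4 genes of the angiopoietin list were lower in Sox2-positive cells (edgeR, adjusted p under 0.05), and their median log2 value was -3.29. Angpt1, the activating Tie2 ligand, had 26.4 and 34.3 CPM in Sox2-negative and 2.00 and 3.58 CPM in Sox2-positive libraries of batches A and B. Angpt2, its context-dependent antagonist, had 14.0 and 21.2 CPM against 3.42 and 2.96 CPM. Between the Sox2-negative batches Angpt1 differed by 0.37 and Angpt2 by 0.60 on the log2 scale (edgeR adjusted p 0.8049 and 0.6258). Ptprb, the phosphatase that acts on Tie2, fell by 3.06 on the log2 scale (SE 0.63, edgeR adjusted p 0.0001776). Angpt4 had 24.7 CPM in batch A Sox2-negative libraries and 0 counts in the Sox2-positive ones, which makes it at least 255.2-fold higher, with 3 counts over the group as the floor.

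Of 14 endothelial transcription factors, 13 were tested and 12 were lower in the Sox2-positive population (median log2 fold change -5.33). The exception was Lmo2, a cofactor also of blood cells (-0.64 ± 0.51, edgeR adjusted p 0.2926), whose difference had opposite signs in the batches. It was lower in batch A (-1.81, edgeR adjusted p 0.006729), stood at 1.13 on the log2 scale in batch B (adjusted p 0.07733), and its interaction was called (2.88, adjusted p 0.01517). In each batch alone, all 12 factors tested were lower in batch A and 8 of 10 in batch B. Fli1, an ETS factor, had 68.8 ± 11.8 CPM (SD, n = 6) and 25.7 ± 11.5 CPM (n = 4) in Sox2-negative libraries. It was at 0.125 and 0 CPM in Sox2-positive ones. Other ETS factors of the list fell less. Erg changed by -1.47 on the log2 scale (SE 0.56, edgeR adjusted p 0.02571) and was not called in batch B alone (-0.35, adjusted p 0.5867). Ets1 changed by -3.45 with both batches. Sox7, at 31.5 CPM in batch A Sox2-negative libraries, and Tal1, a factor shared with blood cells, at 10.1 CPM, had 0 counts in the batch A Sox2-positive libraries. They were at least 325.1-fold and 103.9-fold higher, against the same floor.

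Of 22 further endothelial surface and signalling genes, 20 were tested, 17 were lower, 1 was higher and 2 were not called, with a median log2 fold change of -4.25. Gpihbp1, which anchors lipoprotein lipase to capillary walls, had 97.0 ± 31.9 CPM (SD, n = 6) and 21.0 ± 3.25 CPM (n = 4) in Sox2-negative libraries and 0 counts in all 13 Sox2-positive libraries. It was at least 1000-fold higher in batch A and 240.9-fold in batch B. Robo4 had 69.6 and 17.9 CPM against 0 and 0.0869 CPM, and Myct1 21.1 and 3.29 CPM against 0 in both batches. Ramp2, a partner of the adrenomedullin receptor that many cell types use, was the higher one (0.55 ± 0.21, edgeR adjusted p 0.02901). Its Sox2-positive levels were 88.4 and 97.8 CPM and its Sox2-negative levels 100.3 and 34.3 CPM. Icam2 and Notch4 were the uncalled ones, at 0.08 and -0.68 on the log2 scale. For Icam2 this joined a value of -0.82 in batch A (edgeR adjusted p 0.08043) with a higher level in batch B (1.39, adjusted p 0.002665), and its interaction was called (2.16, adjusted p 0.009718). Between the Sox2-negative batches 13 of the 20 were lower in batch B and none was higher, with a median log2 difference of -1.73.

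Genes of arterial, venous, tip and lymphatic endothelium were mixed: of 14 tested, 10 were lower, 2 were higher and 2 were not called, with a median of -2.43. Aplnr, a receptor of venous and sprouting endothelium (-7.78), the arterial connexin gene Gja4 (-5.51) and the tip-cell gene Esm1 (-5.06) had the lowest log2 fold changes under the rule for named genes. Hey2, a Notch target of arteries that other tissues also express, was higher (2.83 ± 0.48, edgeR adjusted p 1.431e-05), as was Efnb2 (0.86 ± 0.14, adjusted p 8.767e-06). Gja4 resembled Cldn5 in its Sox2-positive libraries, at 0.0797 ± 0.195 CPM (SD, n = 6) and 1.76 ± 1.505 CPM (n = 7) in batches A and B, a log2 difference of 3.88 ± 0.74 (SE, adjusted p 0.0006667 by edgeR). Esm1 fell between the Sox2-negative batches from 30.4 ± 13.7 CPM to 1.80 ± 2.55 CPM (log2 difference -4.07, edgeR adjusted p 0.01053).

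Markers of other cells that carry some of these genes, or surround vessels, were counted in the same way. All 10 leukocyte markers, all 7 erythroid markers and all 9 mesenchymal markers were lower in Sox2-positive cells (edgeR, adjusted p under 0.05), as were 7 of 11 pericyte and smooth muscle markers tested. Of the other 4, Tagln, a smooth muscle gene, was higher (1.19 ± 0.18, edgeR adjusted p 3.258e-06) and 3 were not called. In batch B alone 6 of the 11 were lower and 3 higher, where 4355 and 4268 of all 15765 genes tested were. In Sox2-negative libraries leukocyte markers summed to between 1286 and 1522 CPM (batch A) or between 286.0 and 378.6 CPM (batch B), and to between 4.65 and 14.9 CPM over all Sox2-positive libraries. Of 10 platelet and megakaryocyte markers, 3 passed the filter and all 3 were lower. Platelet-defining genes differed in the Sox2-negative libraries: Ppbp and Gp9 were at 0 in all of them. Pf4 had 19.9 ± 7.00 CPM (SD, n = 6) and 5.45 ± 2.80 CPM (n = 4), and Gp1bb 31.1 ± 9.45 CPM and 56.4 ± 11.5 CPM, in batches A and B. Both were lower in Sox2-positive cells, by log2 fold changes of -7.78 for Pf4 (edgeR adjusted p 1.195e-11) and -4.82 for Gp1bb (adjusted p 1.177e-08). Across Sox2-negative libraries the platelet list summed to between 46.9 and 81.4 CPM (batch A) or between 53.2 and 90.6 CPM (batch B). Vwf and Pecam1 are also made by megakaryocytes, and Pecam1 by leukocytes, and the part of these cells in the Vwf and Pecam1 levels was not tested.

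The genes most like the endothelial genes across libraries were not all endothelial. By Pearson correlation of log2 CPM with the mean of the 10 genes, over 23 libraries and 12741 genes, the closest 10 outside the list were Elane (0.995), Gpihbp1 (0.9947), Ltf, BC100530, Tyrobp, Ifitm6, Srgn, Stfa3, Ncf4 and Mcpt2 (0.991). Gpihbp1 is endothelial, and Elane, Ltf, Ncf4 and Mcpt2 are genes of granulocytes or mast cells. The members themselves ran from 0.888 (Tek) to 0.995 (Emcn), although each is part of the mean. Over the 10 Sox2-negative libraries alone the closest included Mcpt2 (0.988), H2-Ab1, Gmfg, BC100530, Acp5, Lyz2, Plvap, Hdac7 and S100a9 (0.974). Of these Plvap, a protein of capillary diaphragms, is on the endothelial lists and Lyz2 on the leukocyte list. The libraries fall into groups by population and batch, which all these genes share, so the values describe likeness of group pattern and carry no test.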

How the data were processed

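RNA was measured in 23 Smart-seq2 libraries of sorted cells. The authors deposited expected counts (estimated counts) per gene, with no scaling. FastQC, Trimmomatic, Salmon and the build mm10 are named per the submitters' processing notes, without versions, and annotation and strand setting are not given in the sources used here. Of nonzero values, 0.000436% were whole numbers (within 1e-06), and values were rounded before count tests. Of 54347 identifiers, 54094 (99.53%) matched GENCODE M21 without the version, and per-sample columns left unused numbered 0. Groups came from the labels.

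Tests used edgeR 4.0.16 in R 4.3.3 (TMM scaling, filterByExpr with a minimum count of 10, quasi-likelihood F test), fitted on the whole table. P-values were two-sided, with Benjamini-Hochberg adjustment over all genes tested and a threshold of 0.05. The population comparison over both batches had batch as a covariate, and a model of 4 group means gave the interaction and the batch differences. The SE is the absolute log2 fold change over the square root of F. Likeness used log2 CPM with a prior count of 2, among genes with a mean of at least 10 CPM in some group. Fits were tested on simulated data. Each library was counted once, since all 57 pairs within groups differed beyond sampling noise (smallest chi-square over degrees of freedom 5.20, genes with 10 or more counts in the pair). The comparison is with the sampling of reads alone. It can show that no library was a repeat reading of another, but not that libraries came from separate mice.

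The members and gene lists were chosen with earlier results of these data known. Named were all 10 members, all genes of the VEGF and angiopoietin lists and, of each other pathway list, the 3 lowest and the 1 highest log2 fold change among genes with a mean of at least 10 CPM in some group, and the 10 genes most like the members. One gene that this rule names is not reported here. Erg, Ets1, Efnb2, Icam2 and Notch4, and genes of other cell types, were named after their values were seen. Alternatives were DESeq2 1.42.0, limma-voom (limma 3.58.1), 2 other scalings, no filter, a replicate block, mean transcript length, omission of batch B libraries numbered 1 and 2, and omission of each library in turn.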

Additional observations from a re-analysis of the deposited data

Results flagged for a closer look

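Within groups of 4 to 7 libraries, a highest or lowest library lay apart from the rest of its group (Dixon's ratio, 95% critical value) in 11 of 40 group and gene combinations. In the Sox2-negative groups, 3 of 20 were flagged, where chance flags about 1 in 20. Kdr was 235.2 CPM in batch A library 3, the highest of its group. Egfl7 was 291.3 CPM in batch A library 5, the lowest of its group, and 181.3 CPM in batch B library 2, the highest. The other 8 were single Sox2-positive libraries above a group mostly at 0, where a few counts give a ratio near its maximum by construction and the chance rate does not apply. They were Cdh5 at 0.173 CPM (batch A library 2) and 0.286 CPM (batch B library 2), Kdr at 1.78 CPM (batch B library 4), Flt1 at 0.171 CPM (batch A library 5) and Tie1 at 0.669 CPM (batch B library 5). Emcn was at 0.203 CPM in batch A library 3 and 0.801 CPM in batch B library 4, and Cldn5 at 0.368 CPM in batch A library 2. Batch B Sox2-positive library 4 was thus the outlying one for both Kdr and Emcn.

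The population difference differed between batches, by the edgeR interaction test, for Cldn5 (6.28), Vwf (3.99), Pecam1 (2.38) and Egfl7 (1.70), as log2 values of batch B minus batch A.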

How the results depend on the processing

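All 10 genes were called lower in Sox2-positive cells under every alternative run, 7 with both batches, 6 in batch A and 7 in batch B, and with each library left out in turn. Calls of the interaction (4 genes) ran from 3 to 5 with 1 library left out, 5 with DESeq2 or with no filter, 4 with limma-voom (Emcn in place of Vwf), and 2 without batch B libraries numbered 1 and 2. Calls between Sox2-negative batches (9 genes) ran from 7 to 9 with 1 library left out, 10 with limma-voom, 9 with DESeq2 (Vwf in place of Kdr) and 5 without those libraries. Over all genes, omission of those libraries also lowered the calls, from 1924 to 754 here and from 1210 to 481 for the interaction. Calls between Sox2-positive batches (1 gene) were 2 with DESeq2, 2 with no filter and 1 to 2 with 1 library left out.

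Values that changed sign were all uncalled. The interaction of Tie1 became -0.26 with the replicate block. The difference between Sox2-positive batches became -1.16 for Cdh5 without batch B libraries numbered 1 and 2, and for Tie1 0.0138 without them and 0.13 with limma-voom. With 1 library left out the interaction ran from -0.10 to 2.49 for Kdr and from -0.40 to 2.39 for Tie1. The difference between Sox2-positive batches then ran from -0.18 to 0.60 (Pecam1), -1.21 to 1.76 (Cdh5), -1.49 to 1.06 (Kdr), -0.18 to 1.23 (Tek), -2.35 to 0.42 (Tie1), -1.23 to 2.23 (Emcn) and -0.16 to 0.0195 (Egfl7). The cause was not tested.

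Same-numbered libraries of the populations hardly deviated together (correlations from -0.02 to 0.04, and 1 of 10 pairs best with its own number). The highest value, 0.06, joined batch B Sox2-negative library 1 to Sox2-positive library 2. Correlations this small cannot show whether same-numbered libraries shared mice or handling. With the replicate block, 8795 genes were called with both batches in place of 9879, and 557 in place of 1210 for the interaction. The block kept 10 members in each population comparison and 3 in the interaction.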
